A study of Sus scrofa with 5 samples.

Results

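A set of 10 genes of early heart development were followed in porcine blastoids and in the porcine embryonic stem cells (pESCs) from which such blastoids are made. They are 6 transcription factors (GATA4, GATA6, NKX2-5, TBX5, HAND2 and MEF2C) and 4 genes of the contractile apparatus (TNNT2, MYL7, MYL4 and ACTC1), 10 of the 30029 genes in the count tables. The genes were listed with earlier results of these data known, and the cells to compare were set by measured values: a cell counted as a GATA6/collagen cell when it had at least 1 UMI of GATA6 and at least 10 UMIs of the collagen genes COL3A1 and COL1A2 together. A UMI (unique molecular identifier) marks 1 captured RNA molecule. Because values of the same cells chose the genes and the class, differences between the classes are given as descriptions and no test was made.

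The study derived pESCs and turned them into blastoids, stem-cell aggregates that resemble a blastocyst. Single cells of blastoids at day 6 in iBlastoid medium were profiled on the 10x Genomics platform in 2 libraries, and bulk RNA of pESCs was sequenced in 3 libraries. The sample titles name 1 condition for each assay, though the bulk column names given below differ. No source used here says whether the libraries of a group came from separate cultures. Per the study's methods, the pESCs were derived from parthenogenetic blastocysts and grown in 4FIXY medium on mitomycin C-treated mouse embryonic fibroblast feeders. By the same methods, the blastoids were picked by hand for visible compartments and a cavity and dissociated into single cells. The methods describe no mark of the structure a cell came from, so a cell is not traced to its blastoid here. The bulk columns carry the names IVFP25, PA_4P7 and PAP25, the first of which begins with the usual abbreviation of in vitro fertilization, and which pESC sample each belongs to could not be settled from the labels. The names also end in P7 or P25, so the 3 columns may differ in embryo origin and passage.

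The heart forms from lateral mesoderm. GATA factors, NKX2-5, TBX5, HAND2 and MEF2C act together on the genes of cardiac muscle, and the same GATA factors also act in hypoblast and other endoderm, while HAND2 and TBX5 are also used in other mesenchyme. Cardiac troponin T (TNNT2), the atrial myosin light chains (MYL7, the regulatory chain, and MYL4, the essential chain) and cardiac α-actin (ACTC1) are parts of the sarcomere, the contractile unit of striated muscle.

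Library 1 held 7369 cells and library 2 held 8175, with at least 11223 and 9807 UMIs per cell and medians of 29728 and 27588. The GATA6/collagen cells numbered 744 in library 1 (10.1%, 95% exact binomial interval 9.42 to 10.8%) and 512 in library 2 (6.26%, 5.75 to 6.81%), which is 1256 of 15544 cells in all. A further 767 and 817 cells had a GATA6 UMI but fewer collagen UMIs (GATA6-only cells), 134 and 81 had the collagen UMIs without GATA6 (collagen-only cells), and 5724 and 6765 had neither. The intervals cover counting error only. Of the called barcodes 9 occurred in both libraries, and 0 of these were GATA6/collagen cells in both. Median depth was lower in GATA6/collagen cells, at 25652 and 21016 UMIs, than in GATA6-only cells, at 35662 and 32611, so shares of cells are also given after each cell was thinned to 9000 UMIs. More than 2 times the median UMIs of the library was found in 107 of the 744 and 41 of the 512 GATA6/collagen cells. Among all cells it was found in 592 of 7369 and 836 of 8175. Levels are in CPM, the UMIs of a gene summed over the cells of a class in a library and scaled by the UMIs of all genes there.

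GATA4, TBX5 and HAND2 were highest in GATA6/collagen cells among the 4 classes, in both libraries. Their levels were higher still in the cells richest in MYL7 and MYL4, most of them GATA6-only cells, as described further on. GATA4, a zinc-finger factor of heart and endoderm, stood at 70.2 CPM in library 1 and 72.0 in library 2, against 39.3 and 15.1 in GATA6-only cells, 12.8 and 11.4 in collagen-only cells, and 1.17 and 0.79 in cells with neither. TBX5, the T-box factor of the first heart field and the forelimb, stood at 26.4 and 25.9 CPM, against 10.8 and 5.33 in GATA6-only cells and 0.25 and 0.19 in cells with neither. HAND2, a basic helix-loop-helix factor of the right ventricle and of mesenchyme, stood at 51.2 and 59.5 CPM, against 13.7 and 6.88 in GATA6-only cells and 1.95 and 1.01 in cells with neither. For each of these 3 regulators the values of the 2 libraries in GATA6/collagen cells did not overlap with those of any other class. The share of all genes without such overlap is not given, so nothing is read from this. At least 4-fold higher in GATA6/collagen cells than in all other cells, in both libraries, were 2.46% of the genes with enough UMIs. GATA6, which defined the class, stood at 144.3 and 172.6 CPM there and at 58.5 and 51.0 in GATA6-only cells.

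NKX2-5 and MEF2C had another order. NKX2-5, the homeobox factor of cardiac progenitors and working muscle, stood at 36.5 and 21.5 CPM in GATA6/collagen cells and at 48.6 and 23.6 in GATA6-only cells, so the 2 classes overlapped between libraries. Without the 136 cells richest in the light chains MYL7 and MYL4, described further on and chosen after values had been seen, NKX2-5 stood at 18.6 and 15.8 CPM in GATA6/collagen cells and at 10.2 and 5.30 in GATA6-only cells. These values did not overlap, but no share of all genes is given for this either, so nothing is read from it. MEF2C, a MADS-box factor of muscle and vessels, stood at 25.3 and 22.6 CPM in GATA6/collagen cells, at 24.9 and 9.67 in GATA6-only cells and at 33.1 and 33.3 in collagen-only cells. MEF2C was therefore the 1 regulator whose highest class in both libraries was the collagen-only one.

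**Figure D1:**
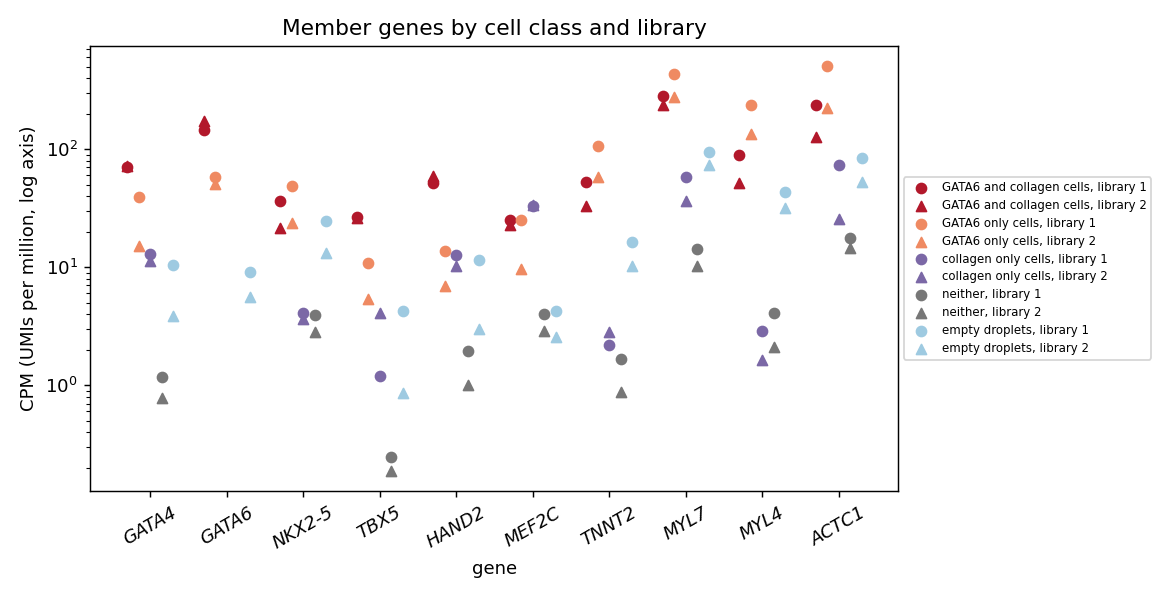
Level of each of the 10 genes in CPM (log axis) in 4 cell classes and in empty droplets, with a circle for library 1 and a triangle for library 2; values of 0 are not drawn. GATA4, TBX5 and HAND2 lie highest in GATA6/collagen cells (HAND2 at 51.2 and 59.5 CPM), while TNNT2, MYL4 and ACTC1 lie highest in GATA6-only cells within each library (TNNT2 at 107.0 and 57.9 CPM); the plot includes the 136 cells richest in MYL7 and MYL4, without which TNNT2 is at 9.17 and 7.68 CPM there and at 17.5 and 10.4 in GATA6/collagen cells.

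Summed over all cells of a class, the 4 sarcomere genes were higher per UMI in GATA6-only cells than in GATA6/collagen cells within each library, and this order turned when 100 of the 1584 GATA6-only cells and 27 of the 1256 GATA6/collagen cells, part of the 136 cells richest in MYL7 and MYL4, were left out. TNNT2 stood at 53.1 CPM in GATA6/collagen and 107.0 in GATA6-only cells of library 1, and at 33.3 and 57.9 in library 2. MYL4 stood at 89.9 and 236.3 CPM in library 1 and at 51.9 and 135.3 in library 2. ACTC1 stood at 237.0 and 504.8 CPM in library 1 and at 126.5 and 223.5 in library 2. For TNNT2 and MYL4 the values of the 2 classes did not overlap across libraries, while GATA6/collagen cells of library 1 exceeded GATA6-only cells of library 2 for ACTC1 and MYL7. The share of all genes without overlap is not given, so nothing is read from this. At least 1.5-fold higher in GATA6-only cells in both libraries were 12.3% of genes. MYL7 differed least, at 284.9 and 429.2 CPM in library 1 and at 237.0 and 275.9 in library 2. Library 1 had the higher level of all 4 genes in both classes.

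The cells left out held 92.1% and 87.1% of the TNNT2 UMIs of GATA6-only cells and 68.6% and 69.3% of those of GATA6/collagen cells. Without them TNNT2 stood at 17.5 and 10.4 CPM in GATA6/collagen cells and at 9.17 and 7.68 in GATA6-only cells. MYL7 stood at 162.5 and 159.5 CPM against 50.6 and 38.0, MYL4 at 17.1 and 7.76 against 8.27 and 7.02, and ACTC1 at 56.5 and 45.8 against 46.9 and 37.6. All 4 genes were then higher in GATA6/collagen cells within each library, with values that overlapped across libraries for MYL4 and ACTC1. As the cells left out were picked by MYL7 and MYL4 UMIs, the lower levels without them follow in part from that choice. Several of these levels were no higher than in empty droplets, whose RNA comes from outside cells and which are described further on. ACTC1 and MYL4 of both classes, and TNNT2 and MYL7 of GATA6-only cells, lay below the empty droplets in both libraries, so only the MYL7 level of GATA6/collagen cells was well above them. By share of cells ACTC1 ran the other way without these cells, with a UMI in 27.7% and 21.1% of GATA6/collagen cells and in 38.3% and 35.0% of GATA6-only cells.

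Counted by the share of cells, MYL7 was higher in GATA6/collagen cells with all cells kept. A UMI of MYL7 was found in 75.5% and 70.5% of GATA6/collagen cells and in 34.2% and 25.8% of GATA6-only cells, with 18.4% and 13.6% in cells with neither. After thinning, MYL7 was detected in 53.2 ± 1.19% (SD, n = 2) of GATA6/collagen cells and in 17.7 ± 4.27% of GATA6-only cells. ACTC1 was detected in 29.6% and 22.1% of GATA6/collagen cells and in 43.5% and 37.8% of GATA6-only cells. TNNT2 was detected in 18.5% and 12.3% of GATA6/collagen cells and in 15.9% and 9.55% of GATA6-only cells, and in 2.10% and 1.61% of cells with neither. After thinning the order of TNNT2 turned, with 9.68% and 7.23% of GATA6/collagen cells and 12.8% and 7.59% of GATA6-only cells. MYL4 likewise was detected in 21.2% and 14.6% against 17.1% and 11.8% without thinning, and in 11.2% and 6.05% against 12.5% and 7.47% after it. Both genes were detected more often in GATA6/collagen cells also after thinning once the 136 cells were left out, TNNT2 in 7.19% and 6.13% against 4.70% and 3.45%, and MYL4 in 8.58% and 4.94% against 4.42% and 3.32%.

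The members lie on separate chromosomes or far apart in the Sscrofa11.1 genome (susScr11), with positions taken from the RefSeq annotation. GATA4 (chromosome 14, 14858470 to 14938156, plus strand) and HAND2 (chromosome 14, 16460089 to 16462979, plus strand) share a chromosome with TBX5 (37772205 to 37826015, plus strand). GATA6 lies on chromosome 6 (107282709 to 107314725, plus), NKX2-5 on chromosome 16 (51086014 to 51089165, plus), and MEF2C on chromosome 2 (96122407 to 96296927, minus). TNNT2 lies on chromosome 10 (23749528 to 23759696, minus), MYL7 on chromosome 18 (51026436 to 51028917, plus), MYL4 on chromosome 12 (16774655 to 16792213, minus) and ACTC1 on chromosome 1 (136281119 to 136286551, plus). The single TNNT2 model is 840 bases of coding length with no UTR, whereas the other members have annotated UTRs at both ends. Reads beyond an annotated end are not counted for a gene, and what this did to TNNT2 was not tested.

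Because the results turn on the sarcomere genes, the 250 bases before the annotated starts of ACTC1 and MYL7 are shown from the RefSeq genome of Sscrofa11.1, 5′ to 3′ on the strand of the gene. Capitals mark a match to a motif searched on both strands: the letters CAAGTG or the letters TAAGTG (NKX2 family) in ACTC1. The MYL7 window has no match to any motif named here. The windows are chr1:136280869-136281118 (plus strand) for ACTC1 and chr18:51026186-51026435 (plus strand) for MYL7, and no exon of another gene lies in them.
ACTC1: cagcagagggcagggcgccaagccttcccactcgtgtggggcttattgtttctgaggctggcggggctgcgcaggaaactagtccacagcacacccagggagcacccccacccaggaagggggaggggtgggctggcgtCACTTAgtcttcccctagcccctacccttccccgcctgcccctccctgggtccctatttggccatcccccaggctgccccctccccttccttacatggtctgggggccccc
MYL7: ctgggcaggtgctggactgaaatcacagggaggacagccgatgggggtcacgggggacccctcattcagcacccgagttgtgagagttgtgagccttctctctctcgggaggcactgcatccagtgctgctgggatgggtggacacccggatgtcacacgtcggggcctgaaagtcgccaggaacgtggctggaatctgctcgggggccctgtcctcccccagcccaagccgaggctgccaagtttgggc

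The ACTC1 match lies 111 to 106 bases before the start. Of 19556 windows of the same length before protein-coding genes, 14.8% held an NKX2 match and 10.3% a match to the T-box letters AGGTGT, for which no count over the members is given. Matches to a GATA motif (the letters AGATAA, the letters AGATAG, the letters TGATAA or the letters TGATAG, in 20.1% of windows) were found before GATA4, at 2 positions, and before TBX5, at 1. A strict CArG box (1.31% of windows), a MEF2 motif (1.53%) or the letters TATAAA (9.77%) were found before none of the 10 members. The CArG box was searched only as the letters CCWWWWWWGG, with W for A or T. The stretches ccctatttgg in the ACTC1 window and ccaagtttgg in the MYL7 window differ from these letters at 1 position and were not counted. Such matches describe the letters of these windows, not binding.

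RNA outside cells was part of the background. In empty droplets, taken as barcodes with 10 to 100 UMIs, MYL7 stood at 94.5 and 72.9 CPM, ACTC1 at 84.8 and 52.9, NKX2-5 at 24.4 and 13.2 and GATA4 at 10.4 and 3.84. These levels were above those of cells with neither for all 4 genes in both libraries, and shares in cells with neither at such levels are not read as expression. Some cells with neither held many UMIs all the same, with 10 or more of ACTC1 in 44 and 49 of them and 10 or more of MYL7 in 29 and 32. The part of free RNA in these shares was not tested. GATA6/collagen cells lay above the empty droplets for all 10 genes in both libraries, far above for GATA4 (70.2 and 72.0 CPM) and less so for NKX2-5 (36.5 and 21.5 CPM). When the 136 cells were left out, this no longer held for 3 genes. ACTC1 (56.5 and 45.8 CPM) and MYL4 (17.1 and 7.76, against 43.3 and 31.6 in empty droplets) then lay below the empty droplets in both libraries, and NKX2-5 (18.6 CPM) lay below them in library 1. TNNT2, at 17.5 and 10.4 CPM, was then close to the 16.5 and 10.2 of empty droplets.

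Against all other cells, 4 of the 10 genes were at least 4-fold higher in GATA6/collagen cells in both libraries, beside 514 of the 20866 genes with enough UMIs (2.46%). The fold was 10.6 and 27.0 for GATA4, 15.4 and 30.0 for TBX5, 13.6 and 32.6 for HAND2, and 17.9 and 27.3 for GATA6. The other 6 genes were higher by up to 5.61-fold (MEF2C, library 2), least so MYL4 (2.50-fold in library 1 and 2.79-fold in library 2), and 0 of the 4 sarcomere genes passed 4-fold in both libraries. The genes and the cells were chosen on this contrast, so nothing is read from the count. When the 136 cells were left out, 7 of the 10 genes passed, beside 2.57% of all genes. Without barcodes over 2 times the median UMIs 6 of the 10 passed, beside 3.32%. When GATA6-only cells were set against cells with neither, 9 of the 10 genes were at least 4-fold higher in both libraries, beside 0.665% of genes. Here GATA6 was 0 by definition in the cells with neither, and the fold of the 4 sarcomere genes was 64.7 and 65.6 for TNNT2, 57.6 and 63.8 for MYL4, 29.8 and 26.7 for MYL7, and 28.6 and 15.3 for ACTC1. MEF2C, at 6.22 and 3.34, was the exception. Without the 136 cells the fold was 13.3 and 12.9 for TNNT2, 5.43 and 5.21 for MYL4, 5.00 and 4.62 for MYL7, and 3.31 and 2.85 for ACTC1, and 7 of the 10 genes passed, beside 0.384% of genes. In the direct comparison of both GATA6-positive classes, TNNT2, MYL4 and ACTC1 were at least 1.5-fold higher in GATA6-only cells in both libraries, 3 of the 10 genes beside 12.3% of all genes. GATA4, GATA6, TBX5 and HAND2 were at least 1.5-fold higher in GATA6/collagen cells, 4 of the 10 genes beside 9.34% of all genes. Without the 136 cells 0 of the 10 genes were at least 1.5-fold higher in GATA6-only cells, beside 13.1% of all genes, and 7 were at least 1.5-fold higher in GATA6/collagen cells, beside 10.6%. These 7 were the 6 regulators and MYL7, at 3.21 and 4.19-fold. The fold of TNNT2 was then 1.90 and 1.35, that of MYL4 2.07 and 1.11 and that of ACTC1 1.21 and 1.22. With the class set at 5 collagen UMIs and all cells kept, 0 of the 10 genes were likewise 1.5-fold higher in GATA6-only cells, beside 11.6% of all genes. Of the 1584 GATA6-only cells 937 had 1 GATA6 UMI. With at least 2 GATA6 UMIs in both classes and all cells kept, GATA6 and HAND2 alone stayed 1.5-fold higher in GATA6/collagen cells, beside 8.86% of all genes. NKX2-5 and the 4 sarcomere genes were then 1.5-fold higher in GATA6-only cells, beside 10.4%. At 20 collagen UMIs with all cells kept, all 4 sarcomere genes were 1.5-fold higher in GATA6-only cells, beside 12.8% of all genes. The higher sarcomere level of GATA6-only cells thus depends on the 136 cells and on where the collagen limit lies. The 136 cells were picked by MYL7 and MYL4, 2 of the genes compared, and most of them were GATA6-only cells. Lower levels of these genes without them follow in part from that choice. At 1.5-fold, the higher GATA4 and TBX5 of GATA6/collagen cells depends on the GATA6 limit.

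Inside the GATA6-positive cells the members differed in how their detection ran along the amount of collagen RNA. The cells were sorted by their COL3A1 and COL1A2 UMIs, in steps that were chosen after values had been seen. After thinning, TNNT2 was detected in 6.20% and 3.77% of cells with 0 collagen UMIs, in 12.7% and 13.8% of cells with 1 to 4, in 40.9% and 18.2% of cells with 5 to 9, in 22.3% and 15.5% of cells with 10 to 29, in 6.80% and 4.71% of cells with 30 to 99, and in 0.67% and 1.37% of cells with 100 or more. TNNT2 was thus most often detected at 5 to 9 collagen UMIs and less often on both sides of it. Without the 136 cells its share was 24.6% and 13.5% at 5 to 9, 16.4% and 13.0% at 10 to 29 and 1.97% and 1.54% at 0. NKX2-5 had a like shape, with 8.63% and 3.77% at 0 collagen UMIs, 36.4% and 27.3% at 5 to 9 and 6.00% and 8.22% at 100 or more, and without the 136 cells it was at 20.3% and 23.1% at 5 to 9 and at 21.9% and 13.0% at 10 to 29. HAND2 had another shape, with 3.23% and 1.32% at 0, 9.42% and 9.91% at 1 to 4, 37.5% and 36.4% at 5 to 9 and 37.3% and 38.4% at 100 or more. The share with HAND2 was thus low below 5 collagen UMIs and about level above. TBX5 was detected in 3.50% and 1.51% of cells at 0 collagen UMIs, in 21.6% and 12.7% at 5 to 9 and in 18.0% and 16.4% at 100 or more. GATA4 was detected in 7.28% and 3.02% of cells at 0, in 45.5% and 38.2% at 5 to 9 and in 27.3% and 17.8% at 100 or more. GATA4 thus lay between TNNT2 and HAND2 in how far its share was lower in the cells richest in collagen. MYL7 stood at 10.8% and 7.74% at 0 collagen UMIs, at 62.9% and 61.3% at 10 to 29 and at 45.3% and 37.0% at 100 or more, and without the 136 cells at 6.76% and 5.60% at 0 and at 60.1% in each library at 10 to 29. Without these cells ACTC1 was at 16.9% and 16.0% at 0, 12.2% and 15.6% at 1 to 4, 23.2% and 21.2% at 5 to 9, 13.7% and 10.9% at 10 to 29 and 16.0% and 12.3% at 100 or more. ACTC1 was thus most often detected at 5 to 9, a step of 69 and 52 cells. MYL4 was then at 2.82% and 1.35% at 0, at 15.9% and 9.62% at 5 to 9, at 9.84% and 3.62% at 10 to 29 and at 10.7% and 8.22% at 100 or more, so it was not lower in the cells richest in collagen than at 10 to 29. The gene for decorin (DCN), a proteoglycan of fibroblasts, was detected in 0.81% and 0.57% of cells at 0 collagen UMIs, in 3.41% and 1.82% at 5 to 9 and in 80.7% and 84.9% at 100 or more.

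Markers of other cell types moved along the same steps, with all cells kept. The steps with little collagen RNA held many cells with POU5F1, of pluripotent cells, or GATA3, of trophectoderm. POU5F1, chosen as was GATA3 after values were seen, was detected after thinning in 42.05% and 56.04% of cells at 0 collagen UMIs, in 13.6% and 21.8% at 5 to 9 and in 4.67% and 6.85% at 100 or more. GATA3 was detected in 62.8% and 64.0% at 0, in 40.9% and 54.5% at 5 to 9 and in 26.0% and 23.3% at 100 or more. Summed over the lists, the 8 epiblast genes went from 390.4 and 484.7 CPM at 0 to 89.4 and 87.5 at 100 or more, and the 8 trophectoderm genes from 10378 and 11030 to 6505 and 5561. The sum of the 16 hypoblast and endoderm genes went the other way, from 395.2 and 431.9 CPM to 786.1 and 932.9. This describes the sum and not most genes of the list. Of its 15 genes with enough UMIs, 3 were at least 1.5-fold higher in GATA6/collagen than in GATA6-only cells in both libraries, beside 9.34% of all genes. As much lower were 6, and the median fold was 0.62, beside 0.95 over all genes. The part of such cells in the shares of the members was not tested.

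**Figure D2:**
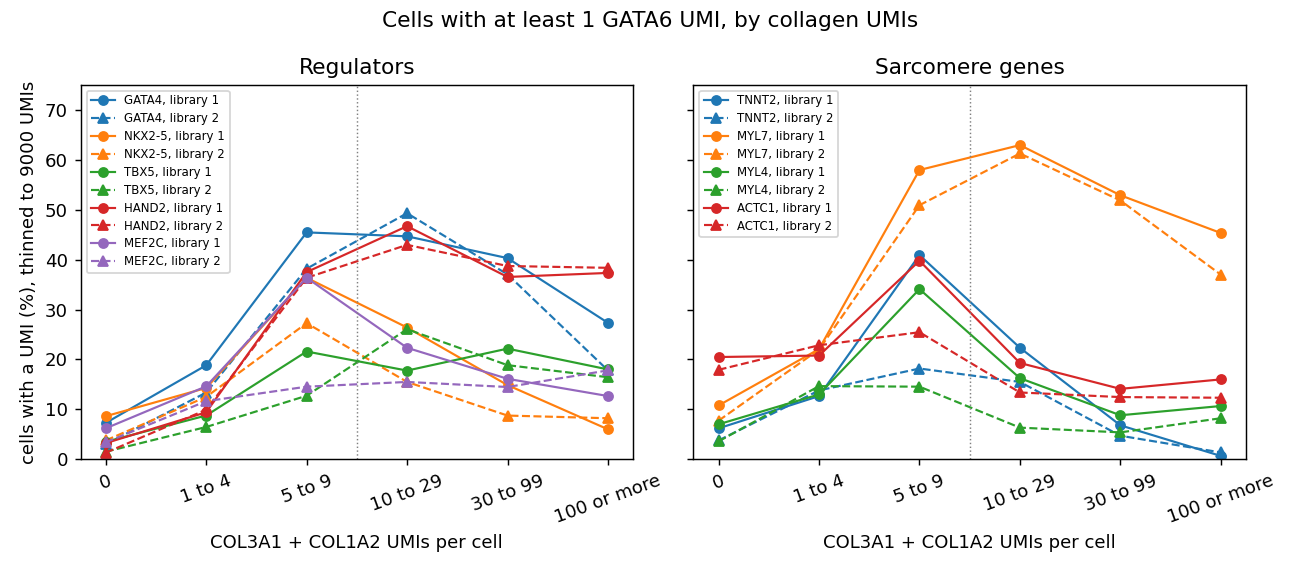
Percentage of cells with a UMI of each gene after thinning to 9000 UMIs, for cells with at least 1 GATA6 UMI sorted by COL3A1 and COL1A2 UMIs, with regulators left and sarcomere genes right; solid lines with circles are library 1, dashed lines with triangles library 2, and the dotted line marks the limit of 10 collagen UMIs. TNNT2 is at 6.20% and 3.77% at 0 collagen UMIs, at 40.9% and 18.2% at 5 to 9 and at 0.67% and 1.37% at 100 or more, whereas HAND2 is at 3.23% and 1.32% at 0 and between 36.4% and 46.7% from 5 UMIs upward.

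Just outside the limit lay the 57 and 29 GATA6-positive cells with 7 to 9 collagen UMIs, and just inside lay the 30 and 21 cells with 10 to 12, all counted without thinning. In library 1 GATA4 was detected in 68.4% of the outer and 70.0% of the inner cells, TNNT2 in 45.6% and 43.3%, MYL7 in 73.7% and 93.3%, and ACTC1 in 57.9% and 36.7%. In library 2 the shares were 62.1% and 47.6% for GATA4, 20.7% and 33.3% for TNNT2, 79.3% and 90.5% for MYL7, and 20.7% and 28.6% for ACTC1. MYL4 stood at 466.7 CPM outside and 132.1 inside in library 1, and at 77.2 outside and 347.9 inside in library 2, so the direction at the limit differed between the libraries.

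Most sarcomere RNA came from very few cells. The 37 cells richest in TNNT2 held 50% of its UMIs in library 1, as did 19 cells in library 2. For MYL4 this took 31 and 17 cells, for ACTC1 30 and 26, and for MYL7 52 and 29. NKX2-5 was next, with 65 and 58 cells. The other regulators were spread more widely, with 138 and 90 cells for GATA4, 225 and 141 for HAND2, and 302 and 268 for GATA6. The highest single cell held 745 UMIs of ACTC1 in library 1 and 495 in library 2.

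Cells with at least 100 UMIs of MYL7 and MYL4 together, a limit set after values had been seen, numbered 91 in library 1 (1.23% of cells) and 45 in library 2 (0.55%). Of these 136 cells, 100 were GATA6-only cells, 27 were GATA6/collagen cells, 1 was a collagen-only cell and 8 had neither. Their median count of collagen UMIs was 4 in library 1 and 2 in library 2. The GATA6/collagen class thus held the smaller part of the cells richest in atrial light chain RNA. More than 2 times the median UMIs of the library, as a droplet with more than 1 cell can have, was found in 15 of the 91 and 3 of the 45 cells, against 592 of 7369 and 836 of 8175 of all cells. The part of doublets in these cells was not tested.

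Every regulator was detected in most of these 136 cells. GATA4 was found in 97.8% of them in each library, NKX2-5 in 98.9% in library 1 and in all 45 in library 2, MEF2C in 95.6% and 88.9%, GATA6 in 94.5% and 91.1%, TBX5 in 83.4 ± 4.82% (SD, n = 2), and HAND2 in 80.2% and 71.1%. The level of NKX2-5 was 482.9 and 525.0 CPM, against 36.5 and 21.5 in GATA6/collagen cells. As means of both libraries, GATA4 stood at 193.5 CPM against 71.1 in GATA6/collagen cells, and TBX5 at 93.7 against 26.1. In the same way HAND2 stood at 68.2 against 55.4 and MEF2C at 178.1 against 24.0. The level of GATA6 was 138.9 and 129.9 CPM, close to the 144.3 and 172.6 in GATA6/collagen cells. TNNT2 was found in 98.9% of the cells in library 1 and in all 45 in library 2, and ACTC1 in 98.9% and 97.8%. After thinning, the steps of 0, 1 to 9, 10 to 99 and 100 or more light chain UMIs gave 0.60%, 2.09%, 25.9% and 97.8% for TNNT2 in library 1, and HAND2 alone of the genes shown was lower at the top step (35.2% and 31.1%) than at the step below it (44.7% and 41.7%).

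**Figure D3:**
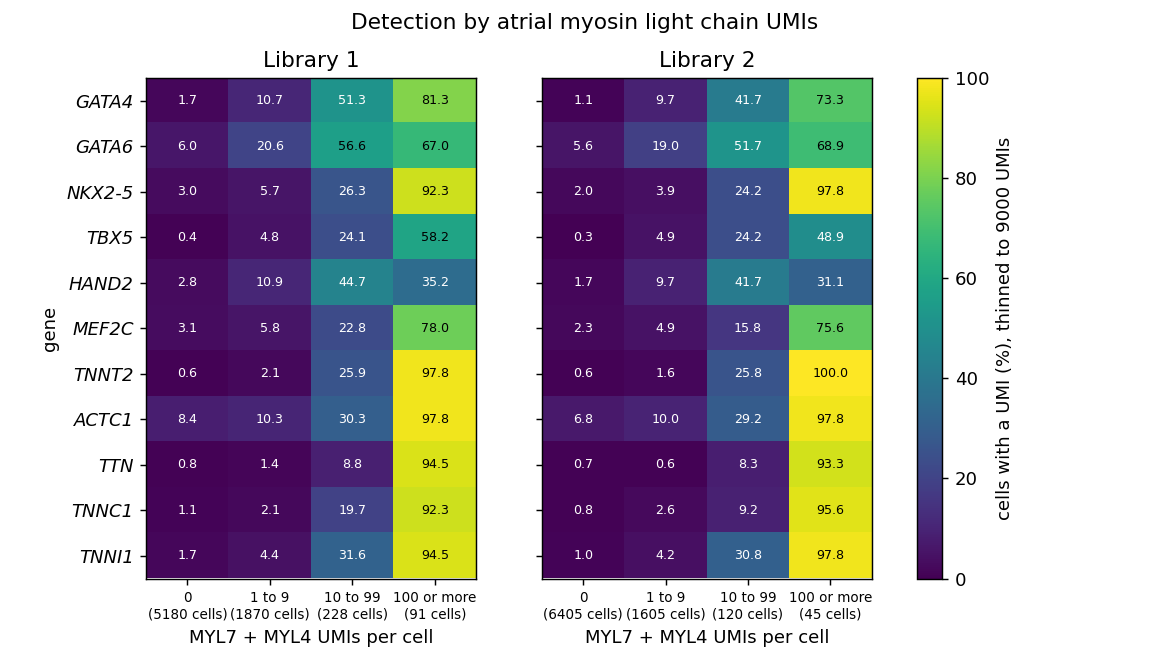
Percentage of cells with a UMI of each gene (rows) after thinning to 9000 UMIs, in cells sorted by MYL7 and MYL4 UMIs (columns, with the number of cells), for each library; the colour runs from 0 to 100%. TNNT2 goes from under 1% to 97.8% in library 1 and to all cells in library 2, and HAND2 is lower at 100 or more UMIs (35.2% and 31.1%) than at 10 to 99.

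Other muscle genes were present in the same cells. Of 21 further sarcomere genes found in the files, 21 were at least 4-fold higher in the 136 cells than in all other cells in both libraries, as were 10 of the 10 studied genes, beside 482 of 20866 genes (2.31%). The cells were picked by MYL7 and MYL4, so the counts describe them and test nothing. TTN, the giant spring protein of the sarcomere, stood at 1034 and 1079 CPM, against 42.2 and 28.0 in GATA6/collagen cells. ACTN2, α-actinin of the Z-disc, stood at 227.4 and 292.7 CPM, and MYH7, the slow β-myosin heavy chain, at 84.9 and 106.2. The following genes were chosen after their values were seen. TNNC1 and TNNI1, troponins of cardiac and slow muscle, were found in 97.8% and 98.9% of the cells of library 1 and in all 45 of library 2, and MYL2, the ventricular light chain, was found in 34.1% and 40.0%. MYH6, the atrial heavy chain, was not among the gene names of the files. Of 16 genes listed with conduction and calcium handling 13 passed the same limit. Among them was NPPA, the atrial natriuretic peptide, at 123.6 and 20.6 CPM and with a UMI in 31.9% and 15.6% of the cells.

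Genes of other cell types were checked in these cells. MYOD1, the master regulator of skeletal muscle, had 0 UMIs in GATA6/collagen cells and in the 136 cells of both libraries, which allows up to 0.11 and 0.22 CPM in GATA6/collagen cells (3 UMIs). SOX17, an endoderm factor, had 6 and 3 UMIs in all GATA6/collagen cells and 0 in the 136 cells. PECAM1, an endothelial adhesion molecule, stood at 1.33 and 1.44 CPM in GATA6/collagen cells and at 1.99 and 1.99 in cells with neither. ISL1, of the second heart field and of amnion, was lower in GATA6/collagen cells, at 37.5 and 30.1 CPM, than in cells with neither, at 61.8 and 47.0. The summed level of 8 epiblast genes was 110.5 and 140.6 CPM in the 136 cells and 261.1 and 356.7 in cells with neither, that of 8 trophectoderm genes was 4227 and 2769 against 9749 and 8969, and that of 10 smooth muscle genes was 6246 and 6505 against 433.2 and 386.1. Smooth muscle genes such as ACTA2 (2622 and 2885 CPM) are also used by embryonic heart muscle.

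In GATA6/collagen cells the other lists stood as follows, all as descriptions. Of 28 further cardiac regulators 12 were at least 4-fold higher than in all other cells in both libraries. That limit, which is used for all lists below, was passed by 2.46% of all genes. The median of these regulators was 3.36-fold beside 0.93-fold over all genes. ZFPM2, a cofactor of GATA4, stood at 556.5 and 671.9 CPM, HAND1 at 488.7 and 550.5, and TBX20 at 111.4 and 128.3. TBX20 was higher still in the 136 cells, at 330.5 and 306.5 CPM, and HAND1 was lower there, at 185.2 and 114.6. Of the 21 further sarcomere genes, with a median of 2.37-fold, 2 passed the 4-fold limit, DES at 22.7 and 26.4 CPM and SYNPO2L at 8.90 and 6.62. On the list of conduction and calcium handling SLC8A1, PLN and the peptide gene NPPA passed, with PLN, the brake of the calcium pump, at 23.2 and 25.8 CPM. NPPA was found in few cells of the class. As means of both libraries its share was 1.87% at 10 to 29 collagen UMIs, 1.22% at 30 to 99 and 0% at 100 or more.

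The list with the highest median fold of the 13 lists in GATA6/collagen cells was that of fibroblasts and mesenchyme (33.9-fold), of which the rule used 2 genes. Of its 12 genes with enough UMIs 11 passed the 4-fold limit. Without COL3A1 and COL1A2, 9 of 10 passed, the median was 22.2-fold, and the summed level was 2217 and 2621 CPM against 108.6 and 101.9 in cells with neither. TWIST1, a factor of mesenchyme, stood at 464.2 and 570.4 CPM and VIM, its intermediate filament, at 809.7 and 904.0. Of 10 smooth muscle genes 4 passed (ACTA2, CNN1, ACTG2 and LMOD1), with ACTA2 at 398.8 and 417.6 CPM. NID2, a basement membrane protein, was the 1 of 16 hypoblast and endoderm genes to pass, at 77.8 and 104.7 CPM. PDGFRA passed among 4 early mesoderm genes with enough UMIs, TEK and HBZ among 9 endothelial and blood genes, and CDX2 among 8 trophectoderm genes, while 0 of 6 skeletal muscle and 0 of 8 epiblast genes did. TEK, an endothelial receptor, stood at 59.0 and 68.6 CPM while PECAM1 was near the level of the other cells. The median fold was 0.40 for the epiblast list, 0.53 for the trophectoderm list and 0.63 for the hypoblast and endoderm list.

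Within GATA6/collagen cells the pairs of genes were compared with what independent detection would give, after thinning. The observed number of cells with both genes, divided by the expected number, was at least 1.2 in both libraries for 11 of 20 pairs of a regulator and a sarcomere gene (GATA6 left out, since every cell has it), for 5 of 10 pairs of regulators and for 6 of 6 pairs of sarcomere genes. TNNT2 and MYL4 were found together in 32 cells of library 1 (8.03 expected, ratio 3.98) and in 8 cells of library 2 (2.24 expected, ratio 3.57). TNNT2 and ACTC1 had ratios of 3.15 and 3.19. NKX2-5 had ratios of 3.10 and 3.08 with TNNT2, 2.47 and 2.45 with MYL4 and 2.05 and 2.33 with ACTC1, but of 1.42 and 1.10 with MYL7. MEF2C had 2.69 and 1.77 with TNNT2 and 1.91 and 2.54 with MYL4. HAND2 had 0.84 and 1.08 with ACTC1 and 1.09 and 1.11 with MYL7. Among pairs of regulators NKX2-5 and MEF2C (1.90 and 1.58) and GATA4 and TBX5 (1.56 and 1.69) were the highest. Without the cells rich in light chain RNA the number of pairs at 1.2 was 8 of 20, 4 of 10 and 5 of 6 in the same order. The ratio of TNNT2 and MYL4 was then 2.69 (12 cells, 4.46 expected) and 1.31 (2 cells, 1.53 expected). Some of these pairs thus rest on very few cells in library 2, as do NKX2-5 and MYL4 (3 cells, 2.42 expected). A ratio above 1 also arises where cells of several kinds are pooled, and the cells of a library are not replicates. No share of other gene pairs at this ratio is given beside the counts, so nothing is read from them.

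**Figure D4:**
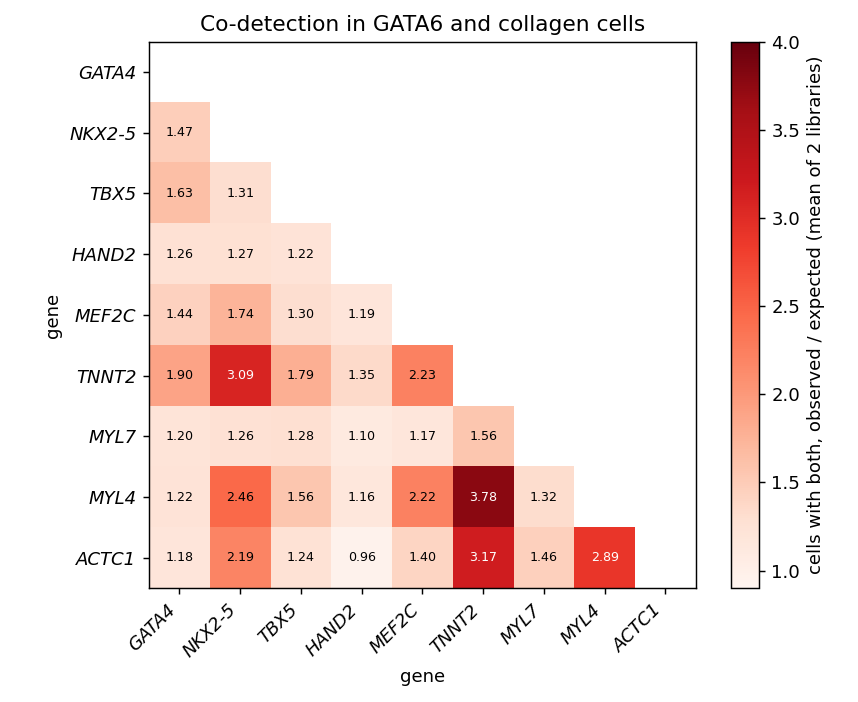
Observed over expected number of GATA6/collagen cells with a UMI of both genes, after thinning to 9000 UMIs, as the mean of 2 libraries (1 is independent detection; GATA6 is left out because it defined the cells). TNNT2 with MYL4 (3.78) and NKX2-5 with TNNT2 (3.09) are dark, and the HAND2 pairs with MYL7 (1.10) and ACTC1 (0.96) are pale.

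Cells with all 4 sarcomere genes were few in the GATA6/collagen class. All 4 sarcomere genes were detected in 27 of 744 cells (3.63%) in library 1 and in 7 of 512 (1.37%) in library 2 after thinning, against 74 of 767 (9.65%) and 42 of 817 (5.14%) of GATA6-only cells and 8 of all cells with neither. None of the 4 was detected in 292 (39.2%) and 213 (41.6%) GATA6/collagen cells. Of the 5 regulators other than GATA6, 3 or more were detected after thinning in 203 of the 1256 GATA6/collagen cells (16.2%) and in 135 of the 1584 GATA6-only cells (8.52%). Without thinning these were 538 (42.8%) and 197 (12.4%) cells. Of the same 5 regulators, 2 or more were detected after thinning in 477 GATA6/collagen cells (38.0%) and in 193 GATA6-only cells (12.2%). A UMI of NKX2-5 or TBX5 was found in 30.1 ± 2.17% of GATA6/collagen cells after thinning and in 51.9 ± 5.93% without it (SD, n = 2). Without the 136 cells rich in light chain RNA, the share with all 4 sarcomere genes was 0.72 ± 0.74%.

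The genes whose levels followed the sarcomere members and NKX2-5 most closely across GATA6/collagen cells were other members or other sarcomere genes. The values were lower without the 27 of these cells that are rich in light chain RNA. Those cells were picked by MYL7 and MYL4 UMIs, which narrows the range of these genes, so lower values follow in part from that choice. Likeness was the Pearson correlation r of log-scaled UMIs over 744 and 512 cells, which share library and depth, and it describes these cells only. TNNT2 was closest to TNNC1 (r = 0.76 and 0.76), MYL4 (0.77 and 0.75) and TNNI1 (0.73 and 0.68). Over the 723 and 506 cells left without those rich in light chain RNA, these values were 0.41 and 0.46, 0.33 and 0.31, and 0.52 and 0.47. NKX2-5 was closest to TNNT2 (0.76 and 0.53, and 0.52 and 0.31 over the cells left), MYL4 and TNNC1. MYL7, MYL4 and ACTC1 also had TNNT2 and TNNC1 among their closest 3 genes. Over the cells left, several of these values fell under the limit of 0.3 in both libraries. They fell from 0.75 and 0.71 to 0.21 and 0.18 for MYL4 and TNNC1, from 0.65 and 0.59 to 0.25 and 0.25 for ACTC1 and TNNC1, and from 0.67 and 0.52 to 0.24 and 0.23 for NKX2-5 and MYL4. The neighbours of the other regulators were as follows. GATA4 was closest to FHOD3 (0.49 and 0.45, and 0.46 and 0.45 over the cells left), a formin of the sarcomere, then EPHA7 and FAM155A. TBX5 was closest to FLRT2 (0.46 and 0.44), GATA4 and NR2F1. MEF2C was closest to CTNNA3 (0.44 and 0.43), the sarcomere gene MYOM1 (0.48 and 0.38) and SORBS2 (0.37 and 0.45). Over the cells left the MEF2C values were 0.31 and 0.27, 0.36 and 0.20, and 0.24 and 0.38, each under 0.3 in 1 library. GATA6 was closest to PDZRN3, COL1A2 and ADAMTS9, of which COL1A2 was part of the rule. HAND2 had 1 gene over the limit of 0.3 in both libraries, TGFB2 (0.36 and 0.42).

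In the pESCs most members were near 0. FPKM is the number of fragments scaled by transcript length and by the total mapped, and the values of the transcripts of a gene were added. At least 1 FPKM in all 3 libraries was reached by 1 of the 10 genes, ACTC1, beside 11061 of 29886 gene symbols (37.0%). ACTC1 stood at 10.1 FPKM in the IVFP25 library, at 6.53 in PA_4P7 and at 3.05 in the PAP25 library. Other muscle actin genes had the same order, ACTA1 at 11.1, 7.51 and 2.67 FPKM, ACTA2 at 10.6, 5.69 and 1.42 and ACTG2 at 1.30, 1.05 and 0.25. They were chosen after values were seen, and the part of feeder cells in these values was not tested. MYL7 stood at 0.30, 0.80 and 1.16 FPKM, and MEF2C at 0.11, 0.11 and 0.19. TBX5 and TNNT2 were listed at 0 in all 3 libraries, HAND2 was above 0 in IVFP25 alone (0.027), and so was MYL4 (0.077). The depth of these libraries is unknown, and a value listed at 0 can be a failed estimate.

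PAP25 stood apart from the other 2 pESC libraries in 3 members. GATA4 stood at 0.23 and 0.25 FPKM in the others and at 5.99 in PAP25, and in the same order GATA6 stood at 0.30, 0.26 and 2.64, and NKX2-5 at 0.093, 0.082 and 0.51. Of the 5 members with at least 0.5 FPKM in PAP25 these 3 were at least 4-fold above both other libraries, beside 1.41% of 13017 genes, and the members were seen to differ before this limit was chosen. Genes of several other cell types were also higher in PAP25. By the same limit these were 6 of 10 hypoblast and endoderm genes, 1 of 4 early mesoderm genes, 1 of 6 trophectoderm genes and 0 of 8 epiblast genes. In the same order of libraries the 16 endoderm genes summed to 132.2, 141.4 and 563.8 FPKM, the 7 mesoderm genes to 9.88, 10.3 and 55.5, and the 8 trophectoderm genes to 1380, 1006 and 1835. A few genes carry these sums. The trophectoderm sum is nearly all keratin, with KRT8 at 971.9, 732.1 and 1448 FPKM and KRT18 given below, so it does not speak for the list. APOA1, at 50.1, 46.8 and 350.4 FPKM, is a large part of the endoderm sum. SOX17 stood at 1.73, 1.82 and 26.1 FPKM. The genes that follow were chosen after their values were seen. FOXA2, an endoderm factor, stood at 13.2, 15.5 and 81.8 FPKM, the early mesoderm gene T at 4.41, 3.09 and 40.6, and GATA3, of trophectoderm, at 0.34, 0.12 and 3.97. Other trophectoderm genes went another way, with SFN at 4.92, 1.62 and 1.18 FPKM and TFAP2C at 4.80, 8.20 and 3.61, both lowest in PAP25, and KRT18 at 397.9, 263.9 and 376.7. TBX3, a T-box factor of several tissues, stood at 0.073, 0.083 and 2.17 FPKM. The endoderm genes SOX7 (0.14, 0.091 and 0.092), AMN (0.60, 0.31 and 0.33) and LAMB1 (39.3, 42.6 and 39.6) were highest in another library than PAP25. The part of such cells in the values of the members was not tested. POU5F1, of pluripotent cells, stood at 638.9, 505.9 and 432.0 FPKM. With 1 library on the high side no test was made, and a difference of cell line, culture or passage cannot be told apart here. The level of GATA4 is 0.24 FPKM as a mean without PAP25 and 2.16 ± 3.32 (SD, n = 3) with it. Bulk RNA cannot tell fewer cells of a type from less RNA per cell.

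**Figure D5:**
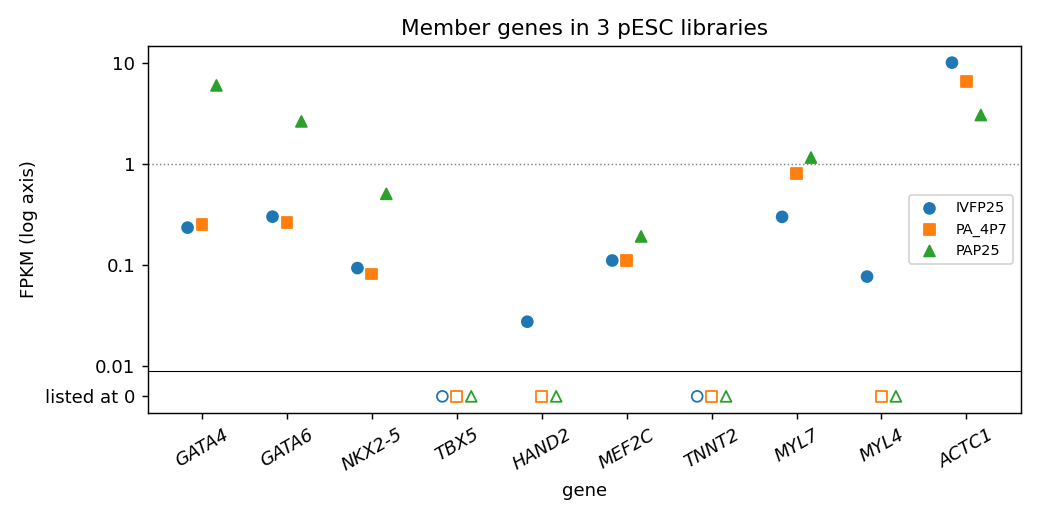
FPKM of each of the 10 genes in 3 pESC libraries (log axis; open symbols on the lowest line are values listed at 0; the dotted line marks 1 FPKM). ACTC1 is above 1 in all 3 libraries, and GATA4, GATA6 and NKX2-5 are highest in PAP25 (5.99, 2.64 and 0.51 FPKM).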

How the data were processed

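The members and gene lists were chosen with earlier results of these data known. Counts: the authors mapped 10x reads to susScr11 with Cell Ranger (7.1.0), and the deposited files are unfiltered UMI counts that include empty droplets. FPKM: the authors trimmed with Trim Galore (0.6.4), mapped with HISAT2 (2.2.1) and computed the deposited FPKM per transcript with StringTie (2.2.1).

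The 2 blastoid libraries held 289452283 and 302211552 UMIs, of which 87.8% and 87.7% lay in called cells. Cells were called by Cell Ranger's order-of-magnitude rule on the 99th percentile of expected cells, which gave the same barcodes as the limits of the rule. There was no mitochondrial filter, and no doublet caller was run, so doublets were kept. Barcodes over 2 times the median UMIs were left out in an alternative. Thinning drew 9000 UMIs per cell without replacement (seed 42), and 0 cells had to be left out. Genes were set against each other between classes only where the compared cells held at least 10 UMIs of the gene in each library. Folds are ratios of summed CPM, and a result over both libraries needed both to pass. No test was made, since the sample titles name 1 condition for each assay and the classes were chosen by measured values, so no p-value is given. Intervals are Clopper-Pearson (95%). The counting step was tested on simulated data.

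Genes named in the text are the 10 members, the 2 collagen genes, up to 4 genes of each list with the highest CPM in GATA6/collagen cells among those at least 4-fold higher, 8 fixed markers, and up to 3 genes most like each member (r at least 0.3 in both libraries, detected in at least 10% of the cells). Others are said to be chosen later. Of these, 1 listed gene and 1 upstream window are not reported here. The FPKM values of transcripts that share a symbol were added. Python 3.11.15 with numpy 2.4.6, pandas 2.3.3, scipy 1.17.1 and matplotlib 3.10.9 was used.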

Additional observations from a re-analysis of the deposited data

How the results depend on the processing

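No paired analysis was possible because no result comes from a test and the FPKM columns carry no replicate number. Of 4 members at least 4-fold higher in GATA6/collagen cells, the number was 9 with at least 5 collagen UMIs (beside 2.53% of all genes), 10 with a fold of 2 (6.66%), 7 without the 136 cells of 100 or more light chain UMIs (2.57%; an alternative chosen after seeing the data), and 4 to 7 with 1 library left out (2.97% without library 2 and 4.08% without library 1). In the direct comparison of both GATA6-positive classes, the 3 members at least 1.5-fold higher in GATA6-only cells became 0 without the 136 cells (13.1% of all genes), 0 with at least 5 collagen UMIs (11.6%), 4 with at least 20 (12.8%), 5 with at least 2 GATA6 UMIs (10.4%) and 1 with a fold of 2 (5.15%). The number was 3 without library 1 (19.9%) and 4 without library 2 (17.3%). The 4 members higher in GATA6/collagen cells became 7 (10.6%) without the 136 cells and 2 (8.86%) with at least 2 GATA6 UMIs. Their number was 5 without library 1 (16.9%) and 4 without library 2 (12.3%). The contrast is that of the rule, so these counts only describe it. The share of GATA6/collagen cells with all 4 sarcomere genes (2.50% as a mean) was 4.21% with at least 5 collagen UMIs, 0.74% with the class set on thinned counts, 5.00% without thinning and 0.72% without those 136 cells. Setting the class on thinned counts left 787 cells (5.12% of cells), and 512 to 744 with 1 library. NKX2-5 or TBX5 was found in 51.9% of cells without thinning. The 11 pairs of a regulator and a sarcomere gene over 1.2 became 7 on thinned class counts, 7 without thinning and 7 at a ratio of 1.5. The causes of these shifts were not tested. The other 63 of these values stayed within 1 SD or 1.5 times. Shares depend on depth and on free RNA, 2 libraries bound the error, and the depth of the FPKM libraries is unknown.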
